A study of Mus musculus with 5 samples.

Results

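Follistatin, activin and TGF-beta genes were examined in sorted tracheal epithelial cells of C57BL/6 mice. The 10 genes were Fst, Inhba, Inhbb, Tgfb1, Tgfb2, Tgfb3, Tgfbi, Smad6, Smad7 and Tgfbr2, taken as every probe set that the array annotation assigns to one of them alone. This gave 23 of the 45037 probe sets that were not controls, and 10 of 18193 named genes. RNA was hybridised to a genome-wide Affymetrix mouse 3' expression array.

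The 3 duct arrays measured cells of the submucosal gland ducts from the upper part of the trachea. Pronase, a protease mixture, was first used to take off the surface epithelium, and the tissue left behind was sorted on 1 surface antigen. The 2 basal arrays measured cells of the lower part, where dispase freed the surface epithelium and the gate was ITGA6 with a further antigen. Each array came from its own pool of 10 to 15 mice of 8 to 12 weeks, of both sexes. The cell type, the enzyme, the tracheal section and the gate all differ between these groups, so their effects cannot be told apart. The samples are mixed sorted populations, so fewer cells of a type and less RNA per cell cannot be told apart either. Of the basal cell markers, Krt5 measured 16831 to 19821 on the duct arrays and 11617 to 12334 on the basal arrays, and Trp63 6944 to 7243 on the duct arrays and 8038 to 9891 on the basal arrays. Both were therefore present in both groups, while Ngfr measured 406 to 754 in duct cells and 1791 to 1820 in basal cells. Krt14 was the 1 called gene of the 5 basal cell markers and was higher in duct cells, at 18421 to 22413 against 1327 to 1533 in basal cells (limma adjusted p = 0.00595). The 5 basal cell markers summed to 63850 to 74520 in duct cells and 43250 to 45554 in basal cells. The 6 secretory and gland markers summed to 106877 to 135130 in duct cells and 117760 to 149500 in basal cells, with 0 of 6 passing. Of these, Bpifa1 measured 37171 to 48513 in duct cells and 41496 to 42638 in basal cells. Cldn4, the 1 called gene of 5 epithelial markers, measured 3178 to 4699 in duct cells and 688 to 919 in basal cells (limma adjusted p = 0.0387). Median intensity was 92.3 on duct replicate 1 and 146.6 to 152.8 on the other 4 arrays.

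Activins are dimers of inhibin beta chains, encoded by Inhba and Inhbb, and signal together with the TGF-beta ligands through paired serine/threonine kinase receptors that phosphorylate SMAD2 and SMAD3. Follistatin is a secreted protein that binds activins and keeps them from their receptors. SMAD6 and SMAD7 are inhibitory SMADs that are induced by the pathway and limit it, SMAD6 mainly on its BMP side. In the airway epithelium activin and TGF-beta signalling is known to restrain the proliferation of basal cells.

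Fst was higher in duct cells by at least 6.67-fold on its more intense probe set and by 3.44-fold of group means on the other. It was the only one of the 9 tested members to pass the test over all genes. That call used the more intense probe set, which passed the filter on dim probe sets through its duct arrays alone. Without that filter the limma adjusted p was 0.0501. Inhbb, the chain of activin B, was 8.91-fold lower in duct cells by group means, and Smad7 5.60-fold lower by its more intense probe set. The groups did not overlap for either gene on that probe set, but their adjusted p-values missed the threshold of 0.05. All 4 Tgfbi probe sets were higher on every duct array than on either basal array, by 2.12-fold to 3.22-fold of group means. Tgfb1, Tgfb3 and Inhba overlapped between the groups.

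Intensities are linear and in arbitrary units, scaled by the authors to a common trimmed mean on each array. A log2 fold change is the duct mean minus the basal mean of log2(intensity + 16), tested with limma and Benjamini-Hochberg adjustment over all 12536 tested genes, each represented by its most intense probe set. That scale understates the change of dim genes. Among all tested genes 0.973% passed the adjusted threshold, 0.838% as higher and 0.136% as lower, and 39.1% had groups that did not overlap. Of the 23 probe sets 19 passed the filter, which left out the lowest 40% by mean level, at an intensity of about 83.9. Fst passed that filter through its duct arrays alone, and Smad6 did not pass. With no detection calls, the brightest of 27 Bacillus control probe sets on each array, at 39.5 to 86.5, marked the background.

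**Figure D1:**
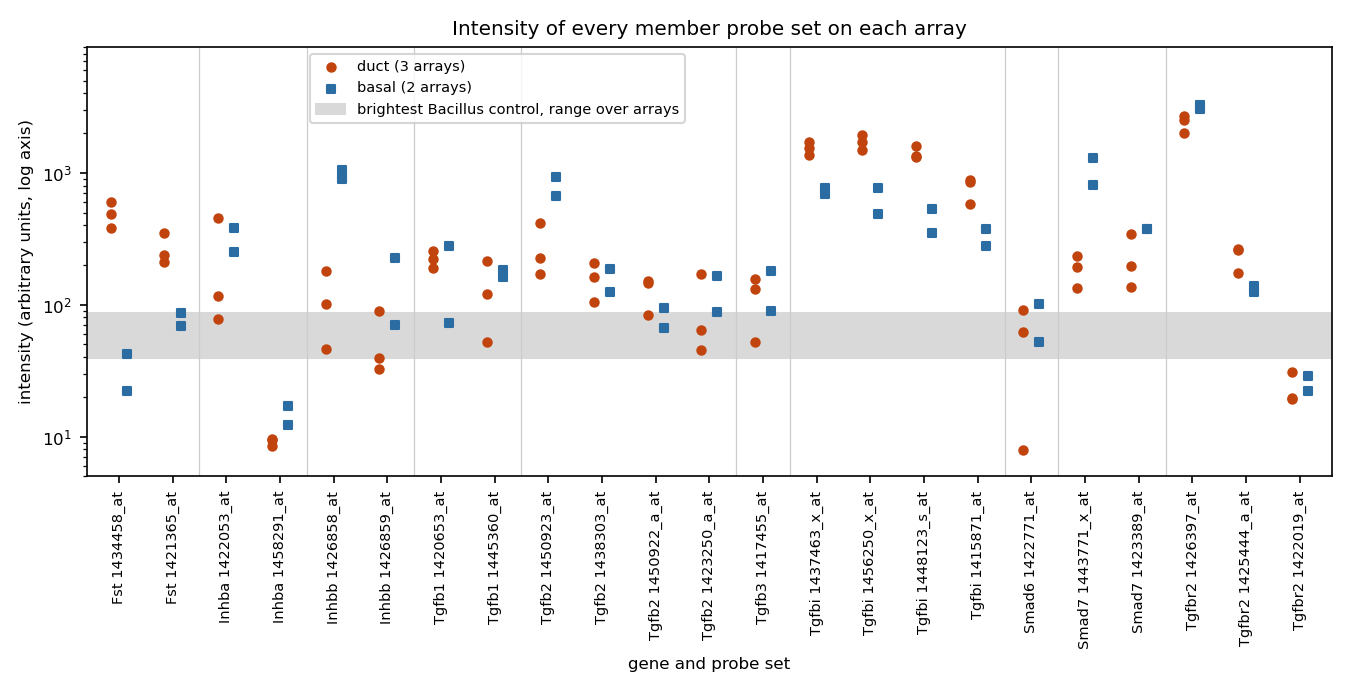
Intensity on each array (log axis, arbitrary units) for all 23 probe sets of the 10 genes, with 3 duct arrays as circles to the left of 2 basal arrays as squares. The grey band spans the brightest Bacillus control of each array, 39.5 to 86.5; both basal arrays of Fst probe set 1434458_at lie within or under it and its duct arrays lie between 379.7 and 597.

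The reference promoter sequences are shown for the 4 members with an entry whose groups did not overlap on the probe set that stood for the gene, 3 lower in duct cells (Inhbb, Tgfb2 and Tgfbr2) and 1 higher (Tgfbi). Each is the 250 bases before the annotated start in RefSeq, build GRCm38.p6, read 5′ to 3′ on the gene's strand. They lie at chr1:119422249-119422498 on the minus strand, chr1:186705990-186706239 on the minus strand, chr9:116175364-116175613 on the minus strand and chr13:56609336-56609585 on the plus strand. Of the 10 genes 7 had an entry, and Fst, Tgfb3 and Smad7 had none. Capitals mark CAGAC, the core of the element that SMAD3 and SMAD4 bind, or its other-strand form GTCTG.
Inhbb: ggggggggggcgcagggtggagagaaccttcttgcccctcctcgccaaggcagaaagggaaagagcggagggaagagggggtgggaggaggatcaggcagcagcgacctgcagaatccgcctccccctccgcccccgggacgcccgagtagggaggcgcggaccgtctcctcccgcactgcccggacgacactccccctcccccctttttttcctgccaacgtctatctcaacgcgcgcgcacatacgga
Tgfb2: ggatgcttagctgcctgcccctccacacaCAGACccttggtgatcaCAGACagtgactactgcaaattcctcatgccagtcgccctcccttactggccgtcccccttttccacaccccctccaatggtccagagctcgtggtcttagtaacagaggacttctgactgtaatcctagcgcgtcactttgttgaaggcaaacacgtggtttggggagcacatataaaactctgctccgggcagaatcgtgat
Tgfbr2: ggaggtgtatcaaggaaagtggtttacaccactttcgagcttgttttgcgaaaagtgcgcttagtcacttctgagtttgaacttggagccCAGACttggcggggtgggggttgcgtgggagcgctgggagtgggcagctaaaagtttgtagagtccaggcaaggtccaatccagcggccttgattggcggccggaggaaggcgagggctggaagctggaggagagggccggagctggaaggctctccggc
Tgfbi: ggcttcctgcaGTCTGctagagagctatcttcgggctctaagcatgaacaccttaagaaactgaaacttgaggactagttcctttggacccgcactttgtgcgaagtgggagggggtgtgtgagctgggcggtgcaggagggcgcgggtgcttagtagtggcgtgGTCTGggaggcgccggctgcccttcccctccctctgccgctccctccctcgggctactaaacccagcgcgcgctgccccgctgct
The core occurred 2 times in the Tgfb2 window, 1 time in the Tgfbr2 window, 2 times in the Tgfbi window and 0 times in the Inhbb window. It occurs in 42.2% of all 32851 such windows, so a match is common. Neither the palindromic element GTCTAGAC (0.167% of windows) nor the AP-1 motif TGANTCA (6.75% of windows), both searched on both strands, was found in these 4 windows.

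The antagonist came first in size among the members that were higher. Fst has 2 probe sets. The more intense, 1434458_at, measured 597, 379.7 and 486 on the 3 duct arrays, against 42.5 and 22.2 on the 2 basal arrays. All duct arrays were far above both basal arrays, which lay under their own brightest Bacillus controls (59.7 and 86.5). The group means were 487 ± 108 in duct cells (SD, n = 3) and 32.3 ± 14.3 in basal cells (SD, n = 2). The log2 fold change was 3.39 (SE 0.32, 95% confidence interval 2.59 to 4.19, limma adjusted p = 0.0194).

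The second Fst probe set, 1421365_at, measured 347, 239.9 and 209.6 on the duct arrays, against 68.5 and 86.1 on the basal arrays. The groups again did not overlap, with a smaller log2 fold change of 1.57 (SE 0.32). With each of 27022 probe sets tested as its own unit, where 0.233% passed, 1434458_at had a limma adjusted p of 0.0374 and 1421365_at one of 0.135. In that fit 1 of the 19 tested member probe sets passed, and it was 1434458_at.

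The call of Fst was sensitive to the arrays and to the number of genes tested. With 1434458_at kept as its probe set, leaving out each array in turn gave log2 fold changes of 3.08 to 3.70 and limma adjusted p-values of 0.0494 to 0.124. Only the fit without duct replicate 1 still passed. With no filter on dim probe sets the fold change was the same and the adjusted p was 0.0501; over the alternatives fixed for this gene it ran from 0.000199 to 0.197, and 8 of 15 passed.

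Markers of other tissue were read on the same arrays, and of the lists given here only the thyroid markers held a called gene. The 3 matched thyroid markers summed to 8982 to 20541 on the duct arrays and 93.5 to 181.9 on the basal arrays, with Tg the only one of 2 tested that passed. Tg measured 11.1 and 53.2 on the basal arrays and passed the filter on dim probe sets through its duct arrays alone. The 8 leukocyte markers summed to 1727 to 2255 in duct cells and 938 to 1611 in basal cells, with 0 of 5 tested passing (1 at an unadjusted p under 0.05) and Coro1a under background on all 5 arrays. The leukocyte sums did not overlap, and 4 of the 5 tested markers had a positive fold change. Cd68, the 1 at an unadjusted limma p under 0.05, measured 294 to 437 in duct cells and 189 to 211 in basal cells. Ptprc, the pan-leukocyte marker CD45, overlapped, at 373 to 1100 in duct cells and 254 to 533 in basal cells. The 8 fibroblast markers summed to 2008 to 4945 in duct cells and 4005 to 4854 in basal cells, and these overlapped, with 0 of 5 tested passing and 0 at an unadjusted p under 0.05. Dcn made up most of that sum, and Dpt, another matrix gene of fibroblasts, measured 84.5, 649 and 935 on the duct arrays, against 163 and 77.4 on the basal arrays. Col3a1 and Lum were under background on duct replicate 1 and both basal arrays, and measured 374 and 160 (Col3a1) and 108 and 88.4 (Lum) on duct replicates 2 and 3. The 6 smooth muscle and myoepithelial markers summed to 387 to 982 in duct cells and 676 to 930.3 in basal cells, with 0 of 3 tested passing. Their groups separated in both directions, Acta2 at 316 to 459 in duct cells and 119 to 142 in basal cells and Myh11 at 13.6 to 80.7 in duct cells and 289 to 357 in basal cells, each at an unadjusted p under 0.05. Myh11 passed the filter on dim probe sets through its basal arrays alone. The part of such cells in the levels of Fst, Tgfbi or the other members was not tested.

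By the root mean square difference of gene-centred log2 values over the 5 arrays, the tested genes most like Fst were Fndc1, at 0.0956, Grhl3, at 0.114, and Stx11, at 0.168. Fndc1 encodes a protein with fibronectin type III domains and measured 359, 251 and 288 on the duct arrays, against 21.2 and 11.7 on the basal arrays. Grhl3, a transcription factor of epidermal barrier formation, measured 2618, 1534 and 2004 on the duct arrays, against 261 and 129 on the basal arrays. Stx11, a syntaxin gene, measured 1968, 1712 and 1905 on the duct arrays, against 185 and 147 on the basal arrays. In each of them, as on the more intense Fst probe set, duct replicate 2 was the lowest duct array and basal replicate 2 the lower basal array. The other Fst probe set did not follow this order in either group. These genes were picked for likeness to the more intense probe set over the same arrays, so the shared order is not a separate observation. Both basal arrays of Fndc1 and of the more intense Fst probe set lay under their own brightest Bacillus controls (59.7 and 86.5). Their basal order is therefore not read, and Fndc1 too passed the filter through its duct arrays alone.

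The activin chains measured lower in duct cells or overlapped between the groups, and neither passed. Inhbb probe set 1426858_at measured 46.1, 180.3 and 101 on the duct arrays, against 896 and 1048 on the basal arrays. Every duct array was well under both basal arrays, and the duct arrays themselves differed widely, with replicate 1 close to its background level of 39.5. The means were 109 ± 67.5 in duct cells (SD, n = 3) and 972 ± 108 in basal cells (SD, n = 2). The log2 fold change of -3.13 (SE 0.50, 95% confidence interval -4.37 to -1.89) had a limma adjusted p of 0.0631.

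The second Inhbb probe set, 1426859_at, was dim and did not pass the filter. It measured 32.3, 89.8 and 39.3 on the duct arrays, against 69.6 and 225 on the basal arrays, and the groups overlapped through duct replicate 2 and basal replicate 1. Over the alternatives, 15 of which used 1426858_at alone and 1 the mean of both probe sets, the adjusted p of Inhbb ran from 0.00104 to 0.295, and it passed in 5 of 16: quantile normalization (0.0309), median centring (0.00104), a pseudocount of 64 (0.0232), a filter at the lowest 60% (0.0267) and an intensity trend together with a robust fit (0.00360). Its fold change stayed negative in all 16, between -3.53 and -2.65 on 1426858_at and at -2.13 with the mean of both.

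Inhba, the chain of activin A, had 1 probe set above the filter. It measured 77.8, 115.9 and 453 on the duct arrays, against 382 and 253 on the basal arrays. Duct replicate 3 lay above both basal arrays while the other 2 duct arrays lay below them, so the groups overlapped. The log2 fold change of -0.86 (95% confidence interval -2.62 to 0.89, limma adjusted p = 0.559) leaves both directions possible, and without duct replicate 3 it was -1.56. The other Inhba probe set, 1458291_at, was under background on all 5 arrays, at 8.47 to 9.59 in duct cells and 12.2 to 17.1 in basal cells.

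The 3 TGF-beta ligands did not pass. Tgfb2 was described by 4 probe sets, and only the most intense, 1450923_at, separated the groups. It measured 226, 170.4 and 415 on the duct arrays, against 933 and 673 on the basal arrays. Its log2 fold change was -1.59 (SE 0.42, 95% confidence interval -2.62 to -0.56, limma adjusted p = 0.138).

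The other 3 Tgfb2 probe sets overlapped between the groups and differed in sign. Probe set 1438303_at measured 104.3 to 206.7 in duct cells and 125.5 to 186.6 in basal cells, a log2 fold change of -0.01. Probe set 1450922_a_at measured 83.5 to 150.4 in duct cells and 66.5 to 94.5 in basal cells, at 0.54. Probe set 1423250_a_at measured 45.4 to 171.8 in duct cells and 88.3 to 164.8 in basal cells, at -0.50. With the mean of the 4 probe sets Tgfb2 was at -0.39, so the size of the difference rests on 1450923_at.

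Tgfb1 probe set 1420653_at measured 255, 223 and 188 on the duct arrays, against 279.7 and 73.2 on the basal arrays. The basal arrays enclosed all 3 duct arrays, and the log2 fold change of 0.54 (95% confidence interval -0.75 to 1.84, limma adjusted p = 0.624) turned to -0.32 without basal replicate 2. The second Tgfb1 probe set, 1445360_at, measured 52.1, 119 and 215 on the duct arrays, against 162 and 182 on the basal arrays, at -0.55. Tgfb3, with 1 probe set, measured 130.4, 157 and 52.4 on the duct arrays, against 89.5 and 179.8 on the basal arrays. Its groups overlapped, and the log2 fold change of -0.26 (95% confidence interval -1.50 to 0.98, limma adjusted p = 0.815) turned to 0.15 without duct replicate 3 and to 0.19 without basal replicate 2.

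**Figure D2:**
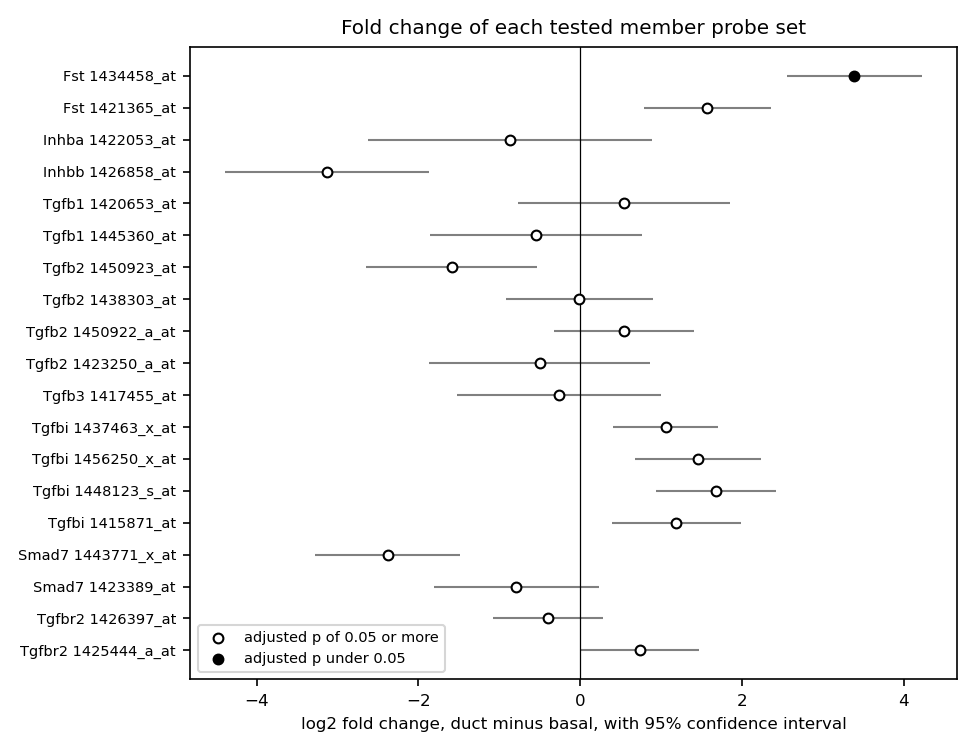
Log2 fold change (duct minus basal, horizontal axis) of the 19 probe sets that passed the filter, with its 95% confidence interval as a bar. Filled points have an adjusted p under 0.05 with every probe set tested as its own unit; only Fst 1434458_at, at 3.39, is filled, and the interval of Inhbb 1426858_at runs from -4.39 to -1.87.

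Tgfbr2, the type II receptor that binds TGF-beta ligands, gave opposite signs on its 2 measurable probe sets. Probe set 1426397_at measured 2703, 2519 and 1995 on the duct arrays, against 3292 and 3029 on the basal arrays. All duct arrays were lower, by a log2 fold change of -0.40 (95% confidence interval -1.03 to 0.23, limma adjusted p = 0.451). Probe set 1425444_a_at measured 259, 175 and 266 on the duct arrays, against 125 and 139 on the basal arrays. All duct arrays were higher there, by 0.73 (adjusted p = 0.338 over probe sets). The third, 1422019_at, was under background on all 5 arrays.

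Of the inhibitory SMADs, Smad7 was lower on both of its probe sets. Probe set 1443771_x_at measured 193, 234 and 134 on the duct arrays, against 1289 and 806 on the basal arrays. The groups stood well apart, with means of 187 ± 50.4 in duct cells (SD, n = 3) and 1048 ± 342 in basal cells (SD, n = 2). The log2 fold change was -2.38 (SE 0.35, 95% confidence interval -3.24 to -1.52), with a limma adjusted p of 0.0510. Its suffix marks a probe set that may also bind other transcripts.

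The other Smad7 probe set, 1423389_at, measured 195, 137 and 344 on the duct arrays, against 373 and 377 on the basal arrays. The groups did not overlap, but duct replicate 3 came close to the basal level and the log2 fold change was -0.79 (adjusted p = 0.435 over probe sets). With possibly cross-hybridising probe sets left out, Smad7 was therefore at -0.79, and with the mean of both at -1.58 (adjusted p = 0.0471). Over its 16 alternatives the adjusted p ran from 0.00397 to 0.361, and 6 passed. Smad6 was near background, at 61.9, 90.5 and 7.90 on the duct arrays, against 101 and 51.7 on the basal arrays. It overlapped between groups and was not tested.

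Tgfbi, a secreted matrix protein named for its induction by TGF-beta, was higher in duct cells on all 4 probe sets. The probe set with the highest mean log2 level, 1437463_x_at, measured 1719, 1537 and 1365 on the duct arrays, against 761 and 695 on the basal arrays. Its log2 fold change was 1.06 (SE 0.24, 95% confidence interval 0.47 to 1.65), with a limma adjusted p of 0.108. Probe set 1456250_x_at measured 1489 to 1947 in duct cells and 489 to 769 in basal cells, at 1.45.

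Probe set 1448123_s_at of Tgfbi measured 1327 to 1588 in duct cells and 349 to 531 in basal cells, at 1.68. Probe set 1415871_at, without a suffix for possible cross-hybridisation, measured 576 to 889.7 in duct cells and 277 to 376 in basal cells, at 1.19. The probe sets share a target and are not replicates, and none passed on its own, with adjusted p-values of 0.120 to 0.201 over probe sets. As a gene Tgfbi passed in 1 of 16 alternatives, the intensity trend together with a robust fit (0.0256, in a range up to 0.355).

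Of the 19 member probe sets tested, 7 were higher on every duct array than on any basal array and 5 were lower, while 35.6% of all tested probe sets had groups that did not overlap. The 9 tested genes had 6 with separate groups, against 39.1% of all tested genes. Their median log2 fold change was -0.40, and that of all tested genes -0.12, so the members that were lower in duct cells are read against a small general shift in the same direction. Centring each array on its median moved the median of all genes to 0.08 and that of the members to -0.20, and none of the 9 members changed sign with it or with quantile normalization.

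**Figure D3:**
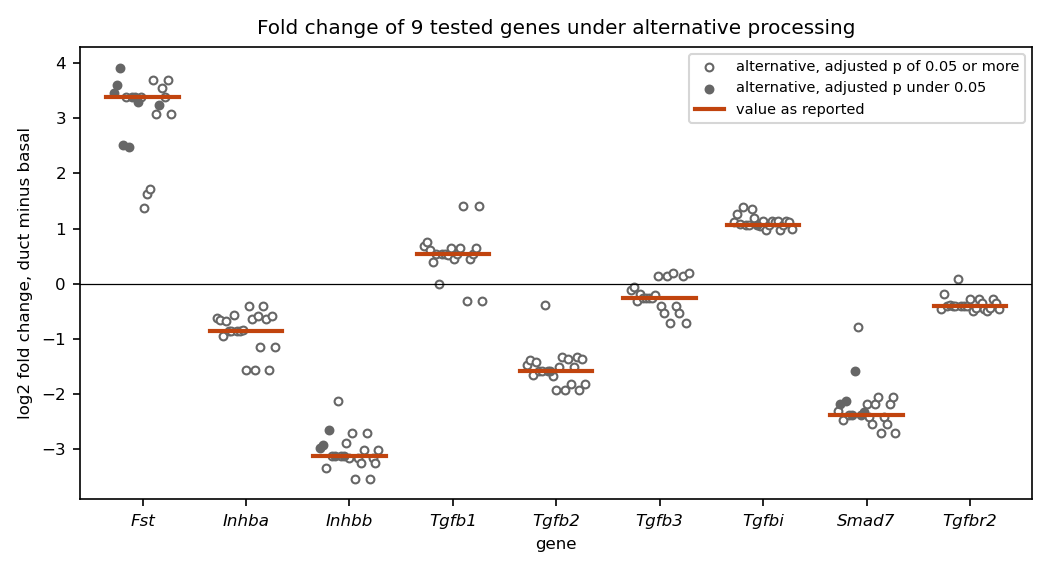
Log2 fold change (duct minus basal, vertical axis) of the 9 tested genes under each alternative, as points, with the value as reported as a bar. Filled points passed an adjusted p of 0.05; Fst stays between 1.37 and 3.92, Inhbb between -3.53 and -2.13, and Tgfb1, Tgfb3 and Tgfbr2 cross 0.

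Other genes of the activin and TGF-beta pathway were taken by role, in 6 lists. Of 74 genes listed, 68 were matched on the array, 55 were tested, and 0 passed over all genes with limma (7 were higher and 6 lower when an unadjusted p under 0.05 was taken, as 18.5% of all tested genes had). Groups did not overlap for 11 that were higher and 17 that were lower, where 16.5% and 22.6% of all genes did so. Their median log2 fold change was -0.18. With each array centred on its median, the medians of the lists lay between -0.31 and 0.34, and negative fold changes numbered 5 of 9 among the receptors and co-receptors (8 without centring) and 9 of 14 among the response genes (11 without centring). The 6 genes that were not matched were not analysed here.

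Among 7 tested extracellular antagonists, the 2 with the largest differences between separate groups were both lower in duct cells. Fstl1, a secreted follistatin-like glycoprotein, measured 699, 871 and 573 on the duct arrays, against 2126 and 2283 on the basal arrays (log2 fold change -1.62, limma adjusted p = 0.0679). Bambi, a decoy receptor without a kinase domain, measured 262, 355 and 195 on the duct arrays, against 837 and 583 on the basal arrays (-1.35, adjusted p = 0.127). Neither passed, and the list had a median of 0.05, with 4 members positive and 3 negative.

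Of 6 tested genes of ligand latency and activation, 3 had separate groups, all lower in duct cells, and the list's median was -0.52. Among all tested genes 39.1% had separate groups, 22.6% as lower in duct cells, so this count is not read as a trait of the list. Ltbp3, a latent TGF-beta binding protein gene, measured 3966, 3661 and 3240 on the duct arrays, against 5317 and 5438 on the basal arrays (-0.57, adjusted p = 0.274). Ltbp4, of the same family, measured 1861, 2040.4 and 1966 on the duct arrays, against 2892 and 3470 on the basal arrays (-0.69, adjusted p = 0.210). Neither passed the test. The 3 tested other ligands all overlapped between groups, with a median of -0.36.

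Of 9 tested receptors and co-receptors, 8 had a negative fold change, with a median of -0.22. Negative fold changes numbered 7321 among all 12536 tested genes, and median centring left 5 of the 9 negative, with a median of -0.02. Acvr1c, which encodes the type I receptor ALK7, measured 32.9, 153 and 94.0 on the duct arrays, against 202 and 188 on the basal arrays (-1.12, adjusted p = 0.332). Acvr2b, a type II activin receptor, measured 37.4, 187 and 217 on the duct arrays, against 265 and 253 on the basal arrays (-1.01, adjusted p = 0.473). In both, duct replicate 1 lay under its background level of 39.5, and neither passed.

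Of the 16 tested intracellular transducers and regulators, 11 had a positive and 5 a negative fold change, with a median of 0.13. Positive fold changes numbered 5215 among all 12536 tested genes. Tgif2, a homeobox corepressor of SMADs, measured 599.8, 1292 and 1689 on the duct arrays, against 394 and 473 on the basal arrays (1.31, adjusted p = 0.228). Skil, which encodes the SMAD corepressor SnoN, measured 3769, 3032 and 3307 on the duct arrays, against 1869 and 1667 on the basal arrays (0.92, adjusted p = 0.137). For both genes each duct array exceeded both basal arrays, and neither passed.

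Of 14 tested response genes, 3 had a positive and 11 a negative fold change, with a median of -0.27. With median centring 9 of the 14 were negative. Of all 12536 tested genes 7321 were negative without centring. Groups did not overlap for 3 response genes that were higher and 5 that were lower, where 16.5% and 22.6% of all tested genes did so. The 2 with the largest differences, given here, were both higher. Itga5, an integrin chain that binds fibronectin, measured 263, 119.8 and 453 on the duct arrays, against 32.6 and 19.8 on the basal arrays. Both basal arrays were under background, which makes it at least 3.38-fold higher (log2 fold change 2.64, adjusted p = 0.0923). Like Fst, it passed the filter on dim probe sets through its duct arrays alone. Cdkn2b, the cell cycle inhibitor p15, measured 1141, 1071 and 646 on the duct arrays, against 184 and 367 on the basal arrays (1.77, adjusted p = 0.113). Neither passed, so the response list held 0 calls in either direction.

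**Figure D4:**
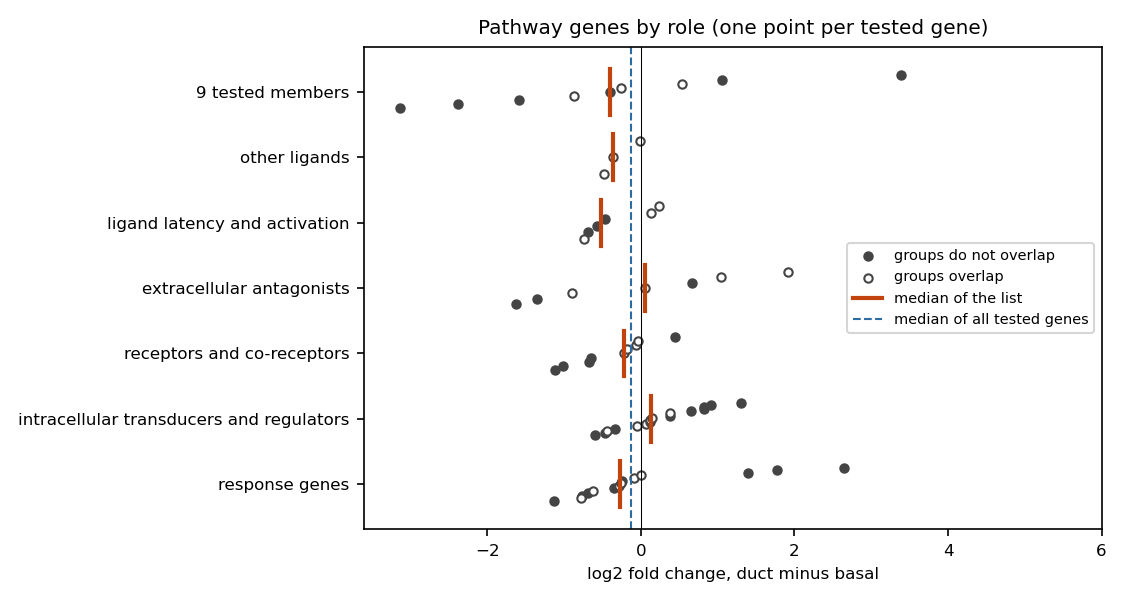
Log2 fold change (duct minus basal, horizontal axis) of each tested gene by role, with the 9 tested members at the top. Filled points have groups that do not overlap, the red bar is the median of each list and the dashed line the median of all tested genes, -0.12; list medians lie between -0.52 and 0.13.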

How the data were processed

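The deposited table holds 1 linear intensity per probe set and array for 5 samples; the authors scaled each array, since a mean that trims 2% of probe sets at either end equals 500.0 throughout. How probe sets were summarised and background was corrected, and any detection calls, are not stated in what was used here. The table has 45101 probe sets, 64 of them controls that were left out of tests, and no columns of other samples (0). Probe sets were named from the platform annotation, checked through Entrez identifiers against RefSeq (GRCm38.p6).

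Each gene was represented by the probe set with the highest mean log2 level, and the lowest 40% of probe sets were left out. Log2(intensity + 16) values were tested in R 4.3.3 with limma 3.58.1 (lmFit, eBayes) on 3 duct and 2 basal arrays without covariates, 2-sided, with Benjamini-Hochberg adjustment. There were 3 residual degrees of freedom and 2.79 prior ones, and the procedure was tested on simulated data. Every adjusted p printed is limma's. A fold is given as "at least" where the lower group lay under the brightest Bacillus control on each of its arrays, from means of log2 values. An exact permutation test of 3 against 2 arrays cannot go below 0.2. Precision is limited by the number of arrays.

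All 10 members were named; of each pathway list the called genes were named, or otherwise up to 2 with the largest fold among those whose groups did not overlap, and 3 genes most like each called member. The members and lists were chosen with earlier results of these data known. One sort antigen is not reported here. Same-numbered replicates came from separate pools and were not treated as paired in the main fit. Alternatives concerned normalization, pseudocount, filter, choice of probe set, variance model, weights on arrays, a block for the replicate number and each array left out. Figures were drawn with matplotlib 3.10.9.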

Additional observations from a re-analysis of the deposited data

How the results depend on the processing

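Over all genes, 105 were called higher in duct cells and 17 lower. Median centring gave 281 and 57, a pseudocount of 64 gave 212 and 95, all probe sets without a filter 35 and 1, the filter set to the lowest 60% 250 and 158, and an intensity trend with robust fit 565 and 377. The lower calls were 28 with quantile normalization, 49 with the mean of probe sets and 40 with array weights. With each array left out in turn, 0 to 38 were higher and 0 to 1 lower; without basal replicate 2, where limma called 0, the unadjusted p was under 0.05 for 927 higher and 889 lower genes. With the replicate number as a block limma called 0 higher and 0 lower (650 and 958 by unadjusted p under 0.05), and 0 members. Deviations of same-numbered samples from their group means had correlations across genes of -0.08 and -0.04. With 2 basal arrays both values rest on the same basal difference, so they cannot decide whether the numbers pair the samples.

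Of the member genes 1, Fst, was called higher and 0 lower. Higher calls were 0 without the filter, and 0 at the 60% filter, which left Fst out. With each array left out they were 0 to 0, and with the intensity trend and robust fit 2. Leaving out a duct array also changed the Fst probe set chosen, giving 1.37 to 1.72. Lower calls were 1 with quantile normalization, 2 with median centring, 2 with a pseudocount of 64, 2 at the 60% filter, 1 with the mean of probe sets, 3 with the trend and robust fit and 1 with array weights. Of member probe sets 1 was called higher, against 0 with a pseudocount of 1, 0 without the filter, 0 with the block, 0 to 0 with an array left out and 4 with the trend and robust fit. Lower calls of probe sets were 2 each with median centring, a pseudocount of 64, the 60% filter and the trend with robust fit, against 0. Pathway genes called higher were 2 with median centring, 1 with a pseudocount of 64, 1 at the 60% filter and 5 with the trend and robust fit, and lower 1, 1 and 3 with the last 3 of these, against 0 and 0.

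Direction turned for Tgfb1 (-0.0016 with the mean of probe sets, -0.32 without basal replicate 2), Tgfb3 (0.15 with the block and without duct replicate 3, 0.19 without basal replicate 2; -0.71 to 0.19 over the arrays left out) and Tgfbr2 (0.081 with the mean of probe sets). The cause was not tested. The fits that keep each gene's probe set while an array is left out were added after seeing the data; in them Tgfb1 ran from -0.32 to 1.41 and Tgfb3 from -0.71 to 0.19. Fits with a single basal array take its spread from the duct arrays. Low signal limits Smad6, Tgfb3, the second Inhba and Inhbb and the third Tgfbr2 probe sets.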
